A study of Drosophila melanogaster with 3 samples.

Results

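Bsh:Dam peaks were examined at 10 genes of the ecdysone response, namely EcR, usp, br, Eip74EF, Eip75B, Eip78C, Eip93F, Hr46, Hr39 and ftz-f1. They were chosen by name, as the receptor of the hormone and the transcription factors that respond to it, out of 17684 genes annotated on the 6 chromosomes with any peak. The choice was made with earlier results of these data known. Hr46 is the older symbol of Hr3, and it is the symbol that the gene lists use. Brain-specific homeobox (Bsh) is a homeodomain transcription factor of the lamina neurons L4 and L5, and the experiment asked which genes it binds in L4 while synapses form. There was 1 group, L4-Bsh-Dam, with 3 biological replicates, all of them Drosophila melanogaster pupae in which 31C06-Gal4, held in check by temperature-sensitive Gal80, drove a fusion of Bsh to the Dam methylase in L4 from 46 to 76 hr APF (after pupa formation). The laminae of many pupae were pooled for each sample. In Targeted DamID, Dam methylates GATC sites near the places where its fusion partner sits, so a peak reports occupancy and not transcription. The peak lists measure no RNA, so the L4 label could not be checked against marker genes here.

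Ecdysone is the steroid hormone whose pulses time moulting and metamorphosis in flies. It binds a heterodimer of 2 nuclear receptors, EcR and its partner Ultraspiracle (usp). The bound receptor switches on early genes such as br, Eip74EF and Eip75B, whose products are transcription factors that go on to regulate later genes. Hr3 is an early-late receptor that is needed for the timing of ftz-f1, and Eip75B can hold it back. ftz-f1 gives tissues the competence to respond to the next pulse. In the pupal brain a pulse of the hormone falls in the period of neurite remodelling and synapse formation, and EcR is known to time the expression of the synapse recognition molecule DIP-β in L4.

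Each peak carries a score and a false discovery rate (FDR) given by the authors' peak caller, and a gene is listed when a peak lies within 1 kb of it. A score is already relative to Dam alone, and it is used here to rank peaks. A gene was called when its highest score was above 2.5, the threshold of the methods, in every replicate. The files hold no read counts, so the depth behind a peak is unknown. With a single condition there is no comparison between groups, and no p-value is given.

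Of the 10 genes, 7 were called, 1 was listed below the threshold and 2 were not listed at all. Of all annotated genes, 9.74% were called, and 13.2% had a peak of any score in every replicate. Called were the receptor gene EcR, the early genes Eip74EF, Eip75B and Eip93F, the early-late genes Eip78C and Hr46, and ftz-f1. Eip78C and Hr46 lost the call, which left 5 members, with a threshold of 3, with an FDR below 0.001 for the highest peak, or when the score had to exceed the replicate's median over listed genes. Under the FDR setting each was lost through 1 replicate, Eip78C in replicate 1 (FDR 0.0031) and Hr46 in replicate 3 (FDR 0.0015). Another Hr46 peak, above 2.5 in every replicate, had an FDR below 0.001 in all 3. The early gene br had a peak in every replicate, but none above 2.5. For usp and Hr39 no replicate listed a peak of any score.

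**Figure D1:**
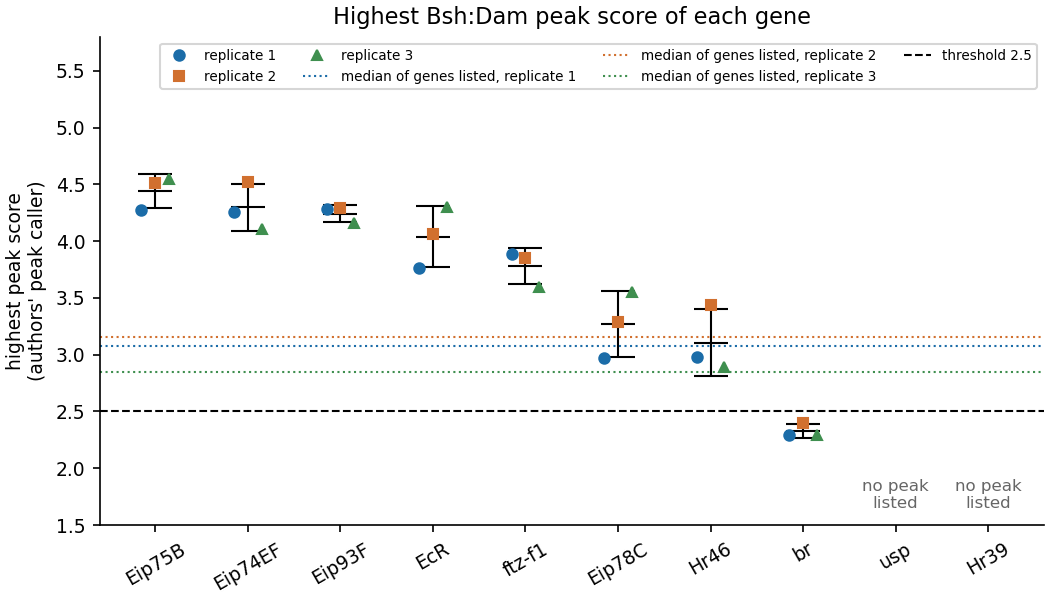
Highest peak score (vertical axis, score of the authors' peak caller) of each of the 10 genes, with 1 symbol per replicate and black bars for the mean ± SD (n = 3). Dotted lines give each replicate's median over all genes listed, 3.08, 3.16 and 2.85, and the dashed line the threshold of 2.5. Eip75B, Eip74EF, Eip93F, EcR and ftz-f1 lie above the median of their replicate in all 3 replicates, and br lies below 2.5 in all 3.

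Most of the members are long genes, and gene length goes with the share called. Among annotated genes of 50 kb or longer, 59.6% were called, and of the 6 members in this class 5 were called, all but br. Among genes of 20 to 50 kb 42.7% were called, and 2 of the 3 members in this class, Eip78C and Hr46 but not Hr39. Among genes under 20 kb 7.37% were called, and usp, the only member in this class with a length of 3514 bp, was not. The share among the members is therefore to be read against the share for genes of their length, and not against the 9.74%.

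**Figure D2:**
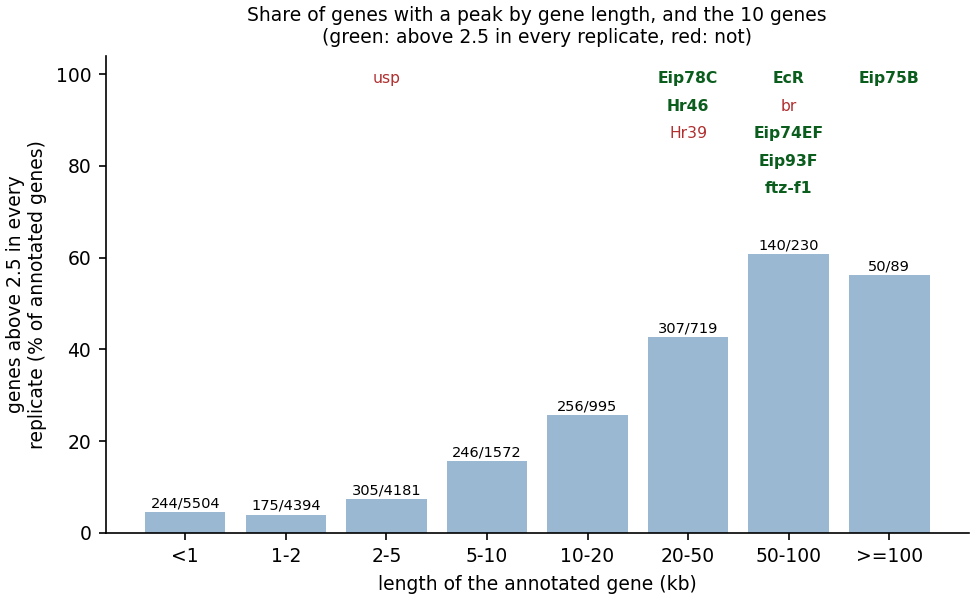
Share of annotated genes called (vertical axis, percent), by length of the gene (horizontal axis, kb), with the number called and the number of genes above each bar and the 10 members named over their class. The share is 4.43% for genes under 1 kb and 42.7% for genes of 20 to 50 kb, and 9 of the 10 members fall in the classes of 20 kb or longer. Members in green were called and those in red were not.

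EcR, which encodes the hormone-binding partner of the receptor, had 4, 5 and 5 peaks in replicates 1, 2 and 3. Its highest score was 3.76, 4.06 and 4.30 (mean 4.04 ± 0.27, SD, n = 3), at or above 77.4%, 88.8% and 97.0% of that replicate's listed genes. The highest peak stayed at the same place, on 2R from 6111066 to 6111772 in replicates 1 and 3 and from 6111066 to 6111486 in replicate 2. A peak at 6132814–6134791 had identical borders in all replicates and scored 3.72, 4.00 and 3.65. In replicates 1 and 2 these peaks differed by less than the spread between replicates, and in replicate 3 the former stood above the latter by more than that.

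A further peak of EcR started at 6095130 and scored 3.39, 3.45 and 3.36, the smallest spread among the positions found in all replicates (SD 0.046). It was 1146 bp long in replicates 1 and 2 and 338 bp long in replicate 3. The peak that ends at 6117313 straddled the threshold with 2.47, 2.52 and 2.29. Single replicates added a peak at 6119734–6122684 in replicate 2 (2.10) and a peak at 6158333–6159523 in replicate 3 (2.54). Only the latter lies within 1 kb of another gene of the lists, the non-coding gene CR43904, which is annotated inside EcR. All 6 positions lie inside the EcR gene.

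The usp gene encodes the other partner of the receptor and is the shortest of the 10. It was listed in no replicate. The nearest peak ended at 2062484 on X in all replicates and scored 3.44, 3.05 and 3.25, and it lies 18980, 18474 and 18980 bp away from usp, within 1 kb of Sik2 and CG4281. EcR thus had 4 positions found in every replicate and usp none, but the genes differ in length, 81215 bp against 3514 bp, and 59.6% of genes of 50 kb or longer were called against 7.29% of genes of 2 to 5 kb.

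Among the early genes, Eip75B had the highest mean score and the most peaks. It encodes a nuclear receptor that binds haem and represses transcription. In replicates 1, 2 and 3 it had 7, 9 and 8 peaks, of which 5, 6 and 5 scored above 2.5. The mean of 8 peaks is at or above that of 99.1% of the 319 annotated genes of 50 kb or longer, whose median is 2. Eip75B is 113744 bp long, and its peaks cover 11.2% of it, at or above the share for 88.7% of these genes. Its highest score was 4.27, 4.51 and 4.55 (mean 4.44 ± 0.15, SD, n = 3), from a peak on 3L at 17971107–17971788. That peak is only 682 bp long, and its borders are the same in every replicate.

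On either side of it stand peaks whose borders are also the same in every replicate. The peak at 17964617–17966884 scored 4.07, 4.09 and 3.74, and the peak at 17975341–17977269 scored 3.75, 3.81 and 3.25. The gaps between the 3 peaks are 4222 and 3552 bp. The lowest FDR among all peaks of the members, 1.17e-25, belongs to these peaks in replicate 3.

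Far from this cluster, Eip75B had a strong peak around 18020949–18022553, with highest scores of 3.54, 4.10 and 3.83. Replicate 2 lists it as separate peaks, at 18020949–18021552 (4.10) and 18021656–18022553 (3.86). Replicate 1 lists only the latter and replicate 3 a peak at 18020949–18022069 that spans the gap between them. At the border of the gene, a peak at 17949476–17951582 scored 2.77, 2.86 and 2.60. The remaining 4 positions scored between 1.71 and 2.23, and only 1 of them, at 17984966–17988412, was found in all replicates (2.00, 2.22 and 1.78). The position at 17982440–17984571, listed in replicates 1 and 2 (1.81 and 1.71), lies within 1 kb of CR45921. CR45921 is a non-coding gene annotated inside Eip75B.

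Eip74EF, which encodes an ETS-domain factor, had 4 peaks in every replicate at the same 4 positions. The highest scored 4.26, 4.52 and 4.11 (mean 4.30 ± 0.21, SD, n = 3) and lies on 3L at 17577396–17578751 in all replicates. A peak of 786 bp at 17590242–17591027 scored 3.40, 3.56 and 3.50, and its FDR was 9.2e-14 in replicate 3. The peak that starts at 17563368 scored 3.45, 3.18 and 2.83. A further peak, at 17586249–17587287 in replicates 1 and 2, remained below the threshold with 2.10, 2.13 and 2.23. No other listed gene lies within 1 kb of any Eip74EF peak.

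Eip93F encodes a factor that acts late in metamorphosis and in the removal of larval tissues. Its highest score was 4.28, 4.29 and 4.16 (mean 4.24 ± 0.072, SD, n = 3), the second-smallest spread among the listed genes after br, from a peak of 1122 bp on 3R at 21998511–21999632 with the same borders in all replicates. The other Eip93F peaks varied more. A peak across the border of the gene at 21948056–21950375 scored 2.99 and 3.19 in replicates 1 and 2 and was not listed in replicate 3. At 21976746 a peak ended that scored 2.18 in replicate 2, where it was 1660 bp long, and 3.12 in replicate 3, where it was 562 bp long. The peak at 21990896–21993041 scored 2.28, 2.68 and 1.98, so it passed 2.5 in replicate 2 alone. Eip93F was thus called on a single position.

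The br gene encodes the BTB zinc finger factors of the Broad complex. It is 89738 bp long and had 1, 2 and 1 peaks, and its highest score was 2.29, 2.40 and 2.29 (mean 2.33 ± 0.064, SD, n = 3). These are at or above 14.2%, 14.7% and 22.8% of that replicate's listed genes. Among 221 genes of 50 kb or longer listed in every replicate, 4.52% had a mean no higher than that of br. In number of peaks br was at or above 46.7% of all 319 annotated genes of this length. Its peaks covered 3.50% of it on average, at or above the share for 49.5% of them. The highest peak lies on X at 1662202–1664655 in all replicates and also within 1 kb of dor and Mur2B, and by the annotation Mur2B spans the whole of br. A weaker peak at 1584220–1586277 was listed in replicate 2 alone (2.09).

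**Figure D3:**
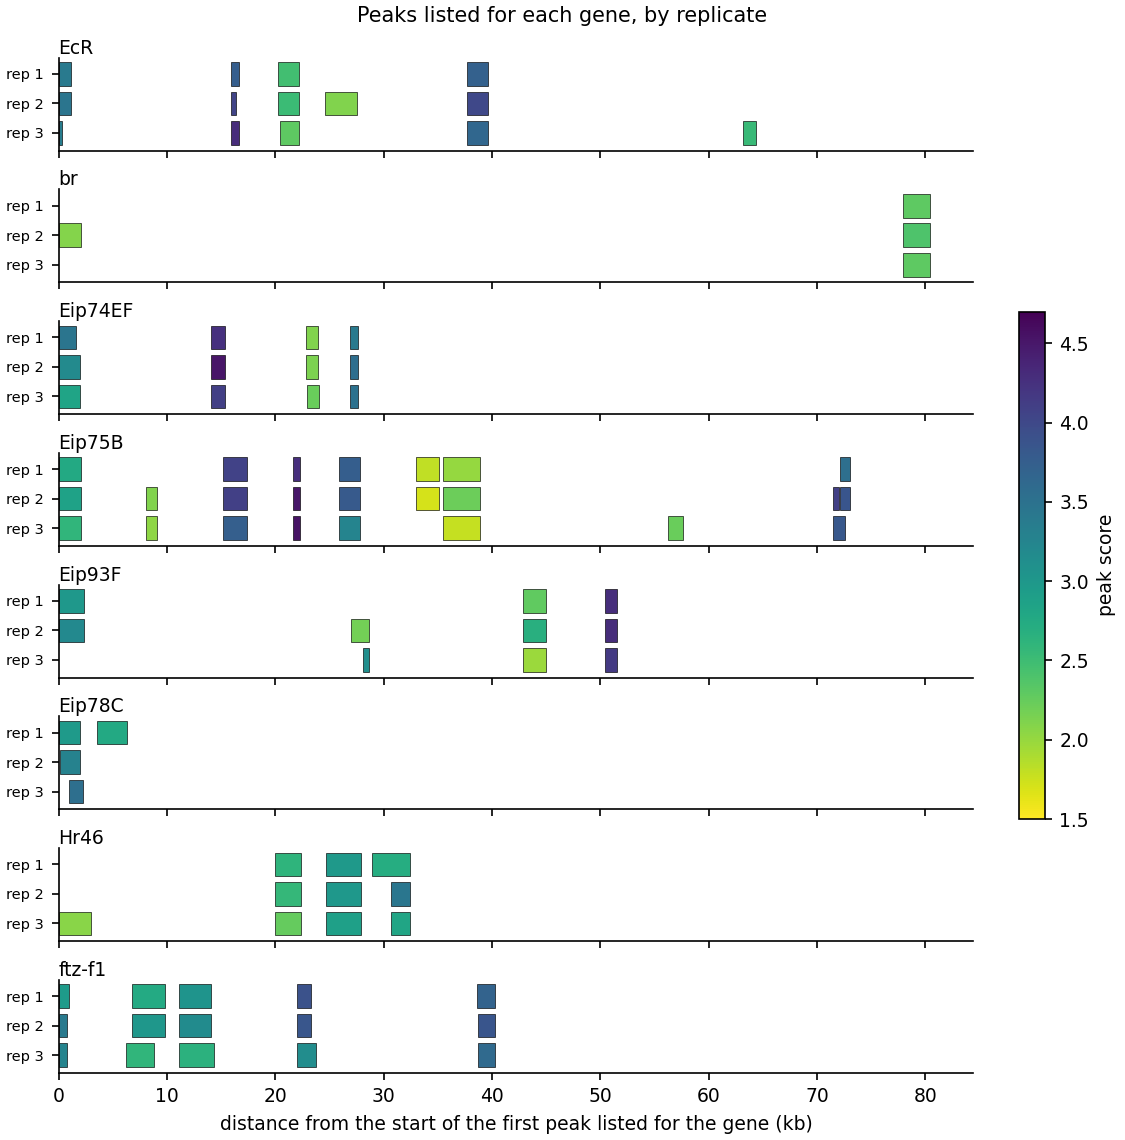
Peaks listed for the 8 genes with any, in a row per replicate, against the distance from the start of the first peak of the gene (horizontal axis, kb, in order of rising chromosome position). Colour gives the score. Eip74EF and ftz-f1 show the same 4 and 5 positions in every replicate, whereas some positions at EcR, Eip75B, Eip93F, Eip78C, Hr46 and br appear in 1 or 2 replicates only.

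The early-late genes Hr46 and Eip78C scored lower. Hr46 encodes a nuclear receptor of the ROR family and had 3, 3 and 4 peaks. Its highest score was 2.98, 3.44 and 2.89 (mean 3.10 ± 0.30, SD, n = 3), at or above 46.3%, 61.9% and 52.8% of the genes listed. In replicates 1 and 3 the highest peak is the one on 2R at 10226420–10229597 (2.98, 2.99 and 2.89), and in replicate 2 it is the one that ends at 10234170 (2.72, 3.44 and 2.82). The latter starts at 10230594 in replicate 1 and at 10232340 in replicates 2 and 3. Its FDR was 4.1e-08, 4.9e-08 and 7.0e-09 in replicates 1, 2 and 3. A peak at 10221627–10224084 scored 2.62, 2.57 and 2.25.

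The Hr46 peaks cover a large share of the gene. They cover 24.8% of it on average, at or above the share for 96.8% of the 719 genes of 20 to 50 kb. In number of peaks, 3.33 on average, Hr46 was at or above 93.0% of these genes. Coverage depends on the number of peaks as well as on their width. The highest score of Hr46 is at or above that of 35.0% of the 374 such genes listed in every replicate. All 10 Hr46 peaks of the 3 replicates are also listed for CG12912, a protein-coding gene annotated inside Hr46. Which of these genes a peak belongs to cannot be told apart from the lists.

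Eip78C encodes another nuclear receptor of the early-late class. It had 2, 1 and 1 peaks, with a highest score of 2.97, 3.29 and 3.55 (mean 3.27 ± 0.29, SD, n = 3). The peak shifts between replicates, from 21251791–21253800 on 3L in replicate 1 to 21251885–21253800 in replicate 2 and 21252741–21254023 in replicate 3. Relative to the median of all genes listed, its score was below in replicate 1 (−0.11) and above in replicates 2 and 3 (0.13 and 0.70). The peak at 21255381–21258094, listed in replicate 1 alone (2.77), lies within 1 kb of CG43218.

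Hr39 encodes a nuclear receptor related to ftz-f1. It was listed in no replicate, and its length of 22426 bp puts it in a class where 42.7% of genes were called. The nearest peaks lie on 2L at 21219192–21220426, 21218795–21220426 and 21218743–21219192, with scores of 3.72, 3.90 and 4.53. They are 16824, 16824 and 18058 bp away from Hr39 and within 1 kb of Atg18b and CG8679.

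In contrast to Hr39, its relative ftz-f1 had 5 peaks in every replicate, all of them above 2.5. It was the only member with a peak at which every listed position was found in all replicates and passed the threshold. Its highest score was 3.89, 3.85 and 3.60 (mean 3.78 ± 0.16, SD, n = 3). It came from the peak that starts at 18770885 on 3L (3.89, 3.84 and 3.15) in replicate 1 and from the peak that ends at 18789195 (3.69, 3.85 and 3.60) in replicates 2 and 3. Both lie within 1 kb of CR45939, a non-coding gene that overlaps ftz-f1.

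The broader peaks of ftz-f1 scored lower. The peak around 18755165–18758702 scored 2.75, 3.0 and 2.60, and the peak around 18760030–18763264 scored 3.05, 3.17 and 2.66. The fifth peak starts at 18748919, outside the gene, and scored 2.96, 3.40 and 3.25. It also lies within 1 kb of Nufip and Atg3. Together the peaks cover 17.7% of ftz-f1, at or above the share for 96.9% of genes of 50 kb or longer.

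**Figure D4:**
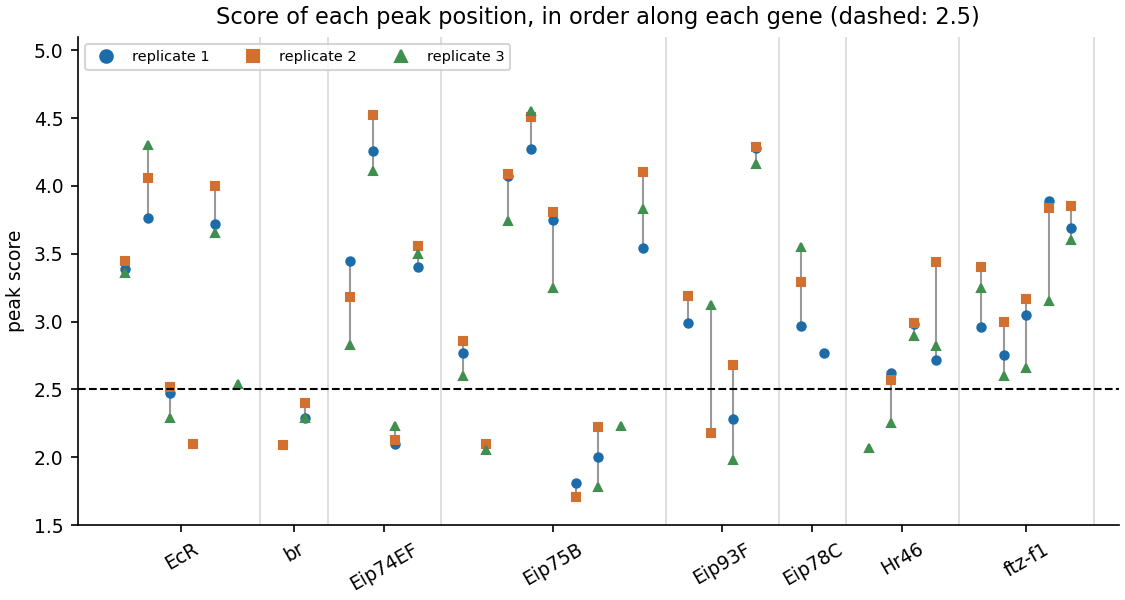
Score (vertical axis) of each of the 36 peak positions, in order of rising chromosome position within each gene, with 1 symbol per replicate, a grey line from the lowest to the highest, and a dashed line at 2.5. Positions listed in 1 or 2 replicates lie between 1.71 and 3.19, and every position that scored above 3.19 in any replicate was listed in all 3.

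Across the 8 listed genes there were 29, 33 and 31 peaks in replicates 1, 2 and 3, which merge into 36 positions. Of these, 26 had a peak in every replicate, 4 in 2 replicates and 6 in 1. The share of peaks that overlapped a peak of both other replicates was 89.7%, 78.8% and 83.9%, a mean of 84.1% ± 5.44 (SD, n = 3). Over all peaks the share was 83.6%, 83.4% and 81.9%, so the members were not set apart by it. At 20 positions every replicate scored above 2.5. Start and end were identical in all replicates at 13 of the 26. The same share over all peaks is not given here, so this does not set the members apart.

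The SD over replicates at these 26 positions ranged from 0.046 to 0.41 with a median of 0.20. At the same 26 positions Pearson's r of the scores was 0.955 between replicates 1 and 2, 0.905 between 1 and 3 and 0.941 between 2 and 3. Positions without a peak in every replicate were left out of these values, so they do not describe agreement over all 36. The same values over all peaks are not given here, so they do not set the members apart. The r values are a description across positions, which share genes and were all set against Dam. Replicate 2 was higher than replicate 1 by 0.17 and than replicate 3 by 0.26 on average. Of the 36 positions 32 lie inside their gene, 3 cross its border and 1 lies outside, and at 24 no other listed gene is within 1 kb. The annotation used holds no strand or exons, so peaks were not placed at start sites or in introns.

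Ordered by mean highest score, the genes ran Eip75B (4.44), Eip74EF (4.30), Eip93F (4.24), EcR (4.04), ftz-f1 (3.78), Eip78C (3.27), Hr46 (3.10) and br (2.33). None of the steps among the 5 highest was beyond the spread. Eip75B exceeded Eip74EF by 0.15 ± 0.25 (SD of the differences, n = 3), and ftz-f1 lay below EcR by 0.26 ± 0.42, with the opposite order in replicate 1. The step from ftz-f1 to Eip78C was 0.51 ± 0.44 and had the same direction in all 3 replicates. Eip78C and Hr46 differed by 0.17 ± 0.43, which is within the spread. Hr46 exceeded br by 0.78 ± 0.23, again in all 3 replicates.

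The median of the mean highest scores over the 8 listed genes was 3.91, against 3.20 over the 2646 symbols listed in every replicate. For genes of 50 kb or longer that were listed in every replicate, the median was 3.61 and the quartiles were 3.09 and 3.98. Eip75B, Eip74EF, Eip93F and EcR lay above this upper quartile, ftz-f1 between the median and the upper quartile, and br below the lower quartile. For listed genes of 20 to 50 kb the median was 3.41 and the lower quartile 2.88. Eip78C (3.27) and Hr46 (3.10) lay between these, at or above 43.3% and 35.0% of that class. As the genes outside the lists have no score, these values describe listed genes only. The highest score of a gene is taken over all its peaks, and it does not describe a typical peak. Over single peaks the median score at the members was 2.99, 3.19 and 2.89 in replicates 1, 2 and 3. Over all peaks it was 2.98, 3.08 and 2.77.

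By the scores of the 3 replicates, the genes most like EcR among 2638 other symbols were T48 (3.91, 3.95 and 4.33), CG42258 (3.77, 3.97 and 4.13) and Atpalpha (3.91, 4.03 and 4.16). Their Euclidean distances to EcR were 0.19, 0.19 and 0.21 score units. The likeness was measured on the highest score alone. In number of peaks, Atpalpha (4, 3 and 4) lay closer to EcR (4, 5 and 5) than T48 (2, 2 and 2) and CG42258 (1, 1 and 2) did.

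To set the members among the other genes of the pathway, 39 genes were counted in 7 lists. The lists were written from general knowledge, with earlier results of these data known. Of the 39 genes, 12 were called, 8 of the 13 that are 20 kb or longer and 4 of the 26 that are shorter. Among annotated genes of 20 kb or longer 47.9% were called, and the share for shorter genes is the 7.37% given above. None of the 8 genes of hormone synthesis (nvd, spo, spok, sro, phm, dib, sad and shd), the enzymes that make ecdysone in the prothoracic gland and other tissues, was listed in any replicate. Their median length is 2594 bp, and nvd and spok are the only ones longer than 20 kb.

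Both transporters were called. Oatp74D, the importer that brings ecdysone into cells, scored 3.65, 3.76 and 3.85 (mean 3.75 ± 0.10, SD, n = 3). E23, an ABC transporter induced by ecdysone, scored 3.42, 3.39 and 3.68. Oatp74D lies between 20 and 50 kb, where 42.7% of genes were called, and E23 between 10 and 20 kb, where 25.7% were called. Cyp18a1, which breaks the hormone down, was not listed. Of 6 receptor cofactors 4 were called, with the corepressor Smr highest (3.75, 4.05 and 3.65), followed by bon, E(bx) and the coactivator tai (3.30, 3.36 and 2.84). The cofactors rig and trr were not listed. Smr and tai are longer than 50 kb, where 59.6% of genes were called, and bon and E(bx) lie between 10 and 20 kb, where 25.7% were called.

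Among the other receptors, the nuclear receptor gene Hr4 was called with 3.33, 3.38 and 3.01 and had 6, 6 and 7 peaks. Hr4 is longer than 50 kb, where 59.6% of genes were called. DopEcR, a membrane receptor for dopamine and ecdysone, fell short in replicate 3 (2.62, 2.79 and 2.47), and Hr38 and Hr78 were not listed. Of 11 genes induced by the hormone 3 were called, namely the zinc finger gene crol (3.94, 4.10 and 3.65), the bZIP gene vri (3.62, 3.67 and 3.36) and Eip63F-1 (3.38, 3.39 and 3.34). The median length of the 11 is 6377 bp. The vri and Eip63F-1 genes lie between 20 and 50 kb, where 42.7% of genes were called. The crol gene lies between 10 and 20 kb, where 25.7% were called. Sox14 passed the threshold in replicates 1 and 2 but not in replicate 3 (2.72, 2.53 and 2.19). The remaining 7 were not listed.

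Of 4 genes that act downstream of the hormone in developmental timing, the BTB zinc finger genes chinmo (4.00, 3.96 and 3.89) and mamo (3.95, 3.82 and 3.62) were called. Their lengths are 53425 and 144412 bp, and 59.6% of genes of 50 kb or longer were called. The ab gene scored 2.32, 2.57 and 2.35, and let-7-C was listed in replicate 3 alone (1.80). Among the juvenile hormone genes Met, gce and Kr-h1, only gce was listed, in replicate 2 alone (2.56).

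**Figure D5:**
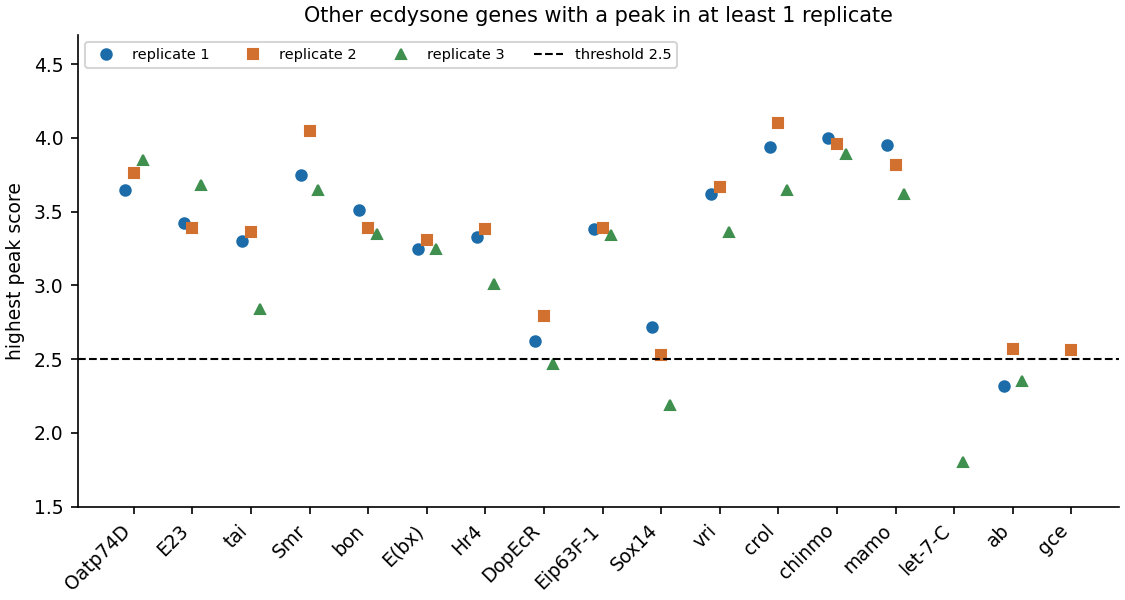
Highest peak score (vertical axis) of the 17 other ecdysone genes listed in at least 1 replicate, with 1 symbol per replicate and a dashed line at 2.5. The 12 called genes lie above the line in all 3 replicates, DopEcR, Sox14 and ab straddle it, and let-7-C and gce have a symbol in 1 replicate only.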

How the data were processed

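Reads were processed by the authors. After FastQC 0.11.9, the damidseq pipeline gave log2 values of Bsh:Dam over Dam, find_peaks (FDR below 0.01, min_quant 0.9) called peaks in each replicate separately, and peaks2genes listed the genes within 1 kb. The deposited files hold a score and an FDR per peak and a score per line of a gene list. How the score is computed from the ratio was not given in the sources used here. Dam libraries were not analysed here, and the genome build is not given in the sources used here.

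All lines of each member were taken and matched by score to the peak lists. Gene spans and symbols came from RefSeq (Release 6 plus ISO1 MT), in which all members and all 39 other genes were found, some of them under another symbol (Hr3 for Hr46, Oatp74D for EcI, phtm for phm, lncRNA:let7C for let-7-C, Cth for Eip55E, MsrA for Eip71CD). For all members in all replicates the listed scores equalled those of the peaks within 1 kb of the span. Listed symbols that matched no single annotated gene were left out of the shares over annotated genes. In every replicate 2646 symbols were listed, whereas 2326 annotated genes had a peak by this match, so these shares may be too low. Peaks of the replicates were merged into positions where they overlapped by at least 1 bp (Python 3.11.15, numpy 2.4.6, pandas 2.3.3, scipy 1.17.1, matplotlib 3.10.9), with code tested on simulated data. Members and lists were chosen with earlier results of these data known. All members are named, with their neighbours within 1 kb, the listed genes of the pathway and the 3 genes with scores nearest to those of EcR. Neighbours in the order of scores were said to differ when the difference had the same sign in every replicate and exceeded its SD.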

Additional observations from a re-analysis of the deposited data

How the results depend on the processing

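The number of members called was 7 in the main setting and ranged from 5 to 8 over 12 alternatives. Eip78C and Hr46 were lost with a threshold of 3, with an FDR below 0.001 for the highest peak and when the score had to exceed its replicate's median over listed genes, and br was gained without a threshold. Peaks within 10 kb and the median of the replicate were alternatives added after the data were seen, and usp and Hr39 had no peak within 10 kb either. Leaving out any replicate left 7 members called. For the 39 other genes the count ranged from 11 to 16 around 12. The share of member peaks found in all replicates, 84.1%, was 77.6% with an overlap of 50% of both peaks, and between 86.8% and 90.7% when a replicate was left out, since peaks then had to be found in fewer lists. The median score of the members, 3.91, was 3.19 with the mean of all scores of a gene in place of the highest, 0.88 after subtraction of the median of each replicate, which changes the scale, and 3.89 to 3.95 without a replicate. Positions found in all replicates numbered 20 to 28 around 26, and 26 to 28 without a replicate. No paired analysis was possible because the samples form a single group. Peaks under the limits set by the authors are not in the lists, so for usp and Hr39 no level of occupancy can be given. With 3 replicates an SD is itself imprecise.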

Other observations

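Some peaks lie between 1 and 10 kb from a member, beyond the 1 kb within which genes were listed. At 8836, 8411 and 8411 bp from Eip93F each replicate had a peak, with scores of 2.92, 2.72 and 2.40, on 3R at 22023375–22024559 in replicate 1 and at 22022950–22024538 in replicates 2 and 3, within 1 kb of Mitofilin and mRpL35. Eip78C had a peak 2818 bp away on 3L at 21221412–21223791 in replicates 1 and 3 (2.95 and 2.77), and in replicate 2 a peak 7358 bp away at 21218688–21219251 (3.60). Near Eip74EF a peak that ends at 17626196 scored 1.87 and 2.07 in replicates 1 and 2, at distances of 4263 and 4808 bp. Single replicates had a peak 9086 bp from Eip75B (3.09, replicate 2) and a peak 6407 bp from Hr46 (1.87, replicate 3). At EcR, br, usp, Hr39 and ftz-f1 no replicate had a peak in this range.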
